A study of Mus musculus with 4 samples.

Results

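Natural killer (NK) cells were the cells that the deposited cell table assigned to the class NK_cells, and they numbered 1066 of 34447 CD45+ cells sorted from mouse melanoma tumours. They came from 4 libraries, with 11 NK cells in CTRL, 50 in COX2i, 437 in COX2i + 5-AZA and 568 in IRF3/7. All tumours grew from YUMM1.7 melanoma cells of the RTT state (resistant to targeted therapy) that carried the model antigen OVA, in Rag2-/- mice, which make no T or B cells of their own. All mice received adoptive transfer (ACT) of activated OT-1 CD8+ T cells, which recognise OVA, and tumours were taken 72 h later, on day 10, with 3 tumours pooled for each library. The CTRL tumours came from the cell line Y1.7_RTT_mCherry_CTRL without drug. The IRF3/7 tumours came from Y1.7_RTT_IRF3/7_OE, in which the tumour cells overexpressed the interferon regulatory factors IRF3 and IRF7. The COX2i tumours were mCherry RTT tumours of mice given celecoxib, an inhibitor of the prostaglandin-producing enzyme COX2. The COX2i + 5-AZA tumours were the same with 5-azacytidine, an inhibitor of DNA methyltransferases, added to celecoxib. The labels give no age for the mice, and the overexpressing line was compared as 1 line.

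NK cells are innate lymphocytes that kill stressed, infected or transformed cells without prior antigen exposure. They release perforin, which opens the target membrane, and granzymes, serine proteases that enter the target and trigger its death, and they secrete IFNγ and chemokines. Their activity is set by the balance of activating receptors and inhibitory receptors for MHC class I, and it is raised by cytokines such as IL-2, IL-12, IL-15, IL-18 and type I interferon and restrained by prostaglandin E2 and TGFβ. Since Rag2-/- mice keep NK cells while lacking T cells of their own, NK cells and transferred T cells were the cytotoxic lymphocytes these tumours could hold.

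The libraries held 67891118 UMIs (counted molecules) in CTRL, 78722763 in COX2i, 76262645 in COX2i + 5-AZA and 26356819 in IRF3/7, and their NK cells held 32453, 255134, 1896328 and 2009767 of them. The median NK cell held between 2595 and 3099 UMIs in the 4 libraries. Levels are given as CPM, a gene's UMIs per 1000000 UMIs summed over the NK cells of a library. In this unit 1 UMI was worth 30.8 CPM in CTRL, 3.92 in COX2i, 0.527 in COX2i + 5-AZA and 0.498 in IRF3/7. Each condition was 1 library, so no difference below has a replicate check or a test. The 95% intervals in parentheses are exact and cover counting error only. The 3 comparisons, given in this order, are COX2i + 5-AZA over COX2i, IRF3/7 over COX2i and IRF3/7 over COX2i + 5-AZA. They share libraries, and IRF3/7 differed from both celecoxib libraries in the tumour line and in the lack of the drug, which cannot be told apart. CTRL values are given beside the others without a ratio, since they rest on 11 cells. A gene is called at least 2-fold higher or lower when its log2 ratio of CPM reached 1 in either direction, among genes with at least 100 UMIs over both NK pools.

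NK cells made up 0.123% (0.0613 to 0.220) of the CTRL cells, 0.547% (0.407 to 0.721) of the COX2i cells, 4.36% (3.97 to 4.77) of the COX2i + 5-AZA cells and 8.97% (8.28 to 9.71) of the IRF3/7 cells. None of these intervals overlapped. The IRF3/7 share was 16.4 times (12.3 to 22.4) the COX2i share and 2.06 times (1.82 to 2.34) the COX2i + 5-AZA share. These are shares of the sorted cells and do not give the number of NK cells per tumour. Transferred T cells could carry the same cytotoxic genes, so their defining transcripts were counted. At least 1 UMI of a defining T cell gene was found in 0 NK cells of CTRL, 4 of COX2i, 32 of COX2i + 5-AZA and 64 of IRF3/7, and the 6 defining T cell genes summed to 0, 23.5, 35.3 and 56.7 CPM. Without the cells that carried such a UMI, NK cells were still 7.96% of the IRF3/7 library.

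The NK label was compared with marker genes, on which the annotation of the class itself rests. The 7 NK markers summed to 22309 CPM in the NK cells of CTRL, 28044 in COX2i, 34287 in COX2i + 5-AZA and 38482 in IRF3/7, against 1.95, 4.68, 38.4 and 133 CPM in the other cells of the same libraries. Ncr1 encodes NKp46, an activating receptor that marks NK cells, and it stood at 832 CPM in CTRL, 455 in COX2i, 574 in COX2i + 5-AZA and 784 in IRF3/7. Il2rb, the shared β-chain of the IL-2 and IL-15 receptors, stood at 4252 CPM in CTRL, 3096 in COX2i, 3013 in COX2i + 5-AZA and 3208 in IRF3/7. The Il2rb levels of the 3 larger pools were close, with a log2 ratio of 0.05 (-0.06 to 0.16) for IRF3/7 over COX2i. Over the 3 libraries with at least 50 NK cells, the genes that stood furthest above the other cells, by their smallest log2 ratio, were Gzmc (9.71), Ncr1 (9.52), Klra7 (9.34), Klrg1 (9.29) and Gzmd (9.24). They were followed by Serpinb9b (9.20), Gzmf (9.11), Gzma (9.06), Dapk2 (9.002), Klre1 (9.001), Gzme (8.98), Sh2d1b2 (8.97), Prf1 (8.91), Samd3 (8.91), Ctsw (8.73), Eomes (8.64), Il2rb (8.60), Gimap4 (8.50), Gimap3 (8.50) and Nkg7 (8.36). Since the cells were clustered on such genes, this order describes the class and does not test it.

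**Figure D1:**
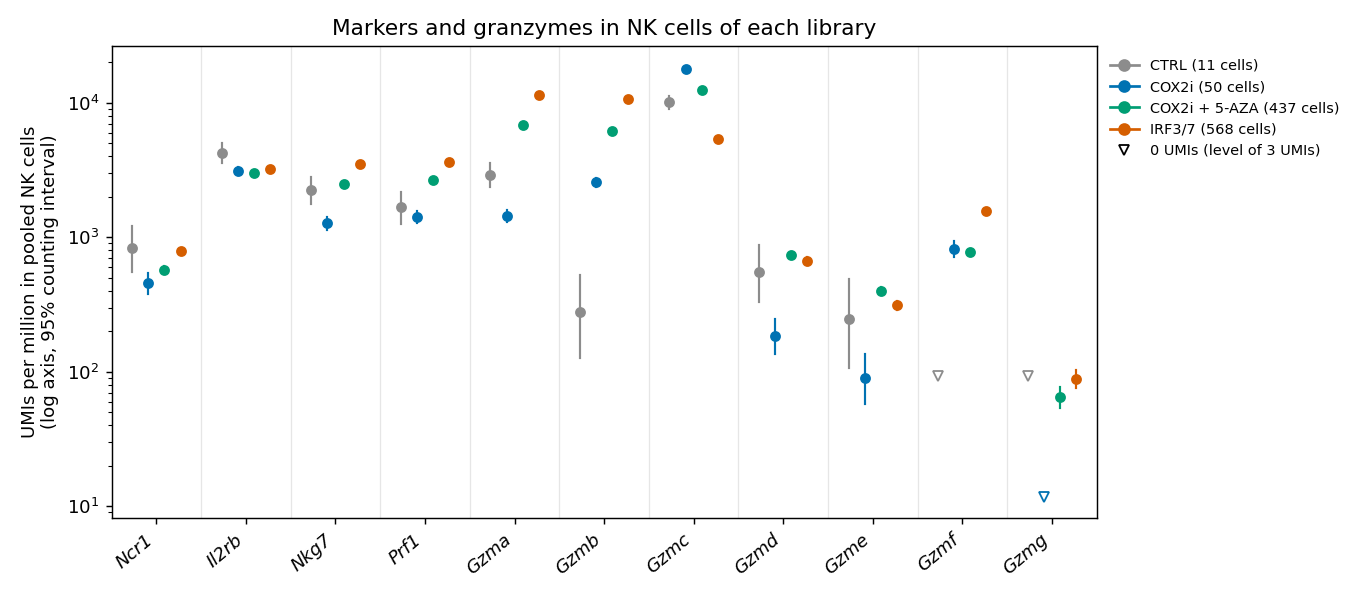
Level in NK cells of each library, in CPM on a log axis, of 4 NK markers and 7 granzyme genes. Dots are the summed UMIs of 11, 50, 437 and 568 NK cells with their 95% counting interval, and open triangles mark genes with 0 UMIs at the level of 3 UMIs: Gzma and Gzmb are lowest in CTRL or COX2i and highest in IRF3/7, while Gzmc is highest in COX2i and lowest in IRF3/7.

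The NK cells of the libraries differed in which granzymes they carried. Granzymes as a whole took up 14144 CPM in CTRL, 22910 in COX2i, 27559 in COX2i + 5-AZA and 30030 in IRF3/7. Granzyme C held 77.7% of the granzyme UMIs in COX2i, 45.4% in COX2i + 5-AZA and 17.9% in IRF3/7. Granzyme A held 6.28%, 24.9% and 38.0%, and granzyme B held 11.2%, 22.4% and 35.3%. In the 11 CTRL cells granzyme C held 71.5%, granzyme A 20.7% and granzyme B 1.96%. Thus the COX2i pool was led by granzyme C, the IRF3/7 pool by granzymes A and B, and the COX2i + 5-AZA pool stood between them for each of these 3 shares.

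The sequences just before the starts of the 3 leading granzyme genes are shown because their genes differed in direction between the libraries. They are 250 bases of the RefSeq promoter table (GRCm38.p6), each given 5′ to 3′ on the gene's strand, with matches to 4 motifs in capitals: the ISRE core, an interferon response element written as GAAA, any 2 bases and GAAA, the AP-1 site TGANTCA, the RUNX site TGTGGT and the T-box half-site AGGTGT, each searched on both strands.
Gzma, chr13:113100982-113101231, minus strand: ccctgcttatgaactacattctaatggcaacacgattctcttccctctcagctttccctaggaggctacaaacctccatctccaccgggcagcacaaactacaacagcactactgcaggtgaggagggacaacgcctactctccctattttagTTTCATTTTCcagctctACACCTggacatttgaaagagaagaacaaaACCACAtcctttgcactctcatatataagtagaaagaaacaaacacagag
Gzmb, chr14:56262335-56262584, minus strand: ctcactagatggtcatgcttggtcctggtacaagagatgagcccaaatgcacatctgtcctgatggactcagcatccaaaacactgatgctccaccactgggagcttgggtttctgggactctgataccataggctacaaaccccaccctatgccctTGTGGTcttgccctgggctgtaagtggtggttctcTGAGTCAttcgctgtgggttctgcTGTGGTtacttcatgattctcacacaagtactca
Gzmc, chr14:56234658-56234907, minus strand: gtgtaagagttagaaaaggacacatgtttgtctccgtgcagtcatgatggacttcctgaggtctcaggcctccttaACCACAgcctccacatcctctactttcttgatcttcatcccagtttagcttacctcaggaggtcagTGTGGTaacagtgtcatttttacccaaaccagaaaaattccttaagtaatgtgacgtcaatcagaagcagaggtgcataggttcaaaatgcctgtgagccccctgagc
The Gzma window held 1 ISRE core 88 to 97 bases before the start, 1 T-box match at 75 to 80 bases and 1 RUNX match at 45 to 50 bases. The Gzmb window held an AP-1 match 52 to 58 bases before the start and RUNX matches at 88 to 93 and 29 to 34 bases. Distances are counted from the RefSeq start, which for Gzmb lies upstream of the gene coordinates given below. The Gzmc window held RUNX matches at 169 to 174 and 103 to 108 bases and none of the other 3 motifs. Of 32851 windows of this length, 2.98% held the ISRE core, 6.75% the AP-1 site, 14.0% the RUNX site and 11.8% the T-box half-site. These matches describe the letters in the windows only.

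Gzma, on chromosome 13 (113093825 to 113100981, minus strand, GRCm38), encodes a tryptase that cleaves after basic residues. It stood at 2927 CPM in CTRL, 1438.5 in COX2i, 6851 in COX2i + 5-AZA and 11397 in IRF3/7. Its log2 ratio was 2.25 (2.10 to 2.41) for COX2i + 5-AZA over COX2i, 2.99 (2.84 to 3.14) for IRF3/7 over COX2i and 0.73 (0.70 to 0.77) for IRF3/7 over COX2i + 5-AZA, so no intervals of the 3 levels overlapped. Gzmb, on chromosome 14 (56258838 to 56262260, minus strand), encodes the granzyme that cleaves after aspartate and activates caspases. It stood at 277 CPM in CTRL, 2567 in COX2i, 6179.8 in COX2i + 5-AZA and 10591 in IRF3/7, and the CTRL value rests on 9 UMIs. The log2 ratio was 1.27 (1.15 to 1.38), 2.04 (1.93 to 2.16) and 0.78 (0.74 to 0.81) in the same order.

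Gzmc lies in the same cluster on chromosome 14 (56231441 to 56234656, minus strand) and ran the other way. It stood at 10107 CPM in CTRL, 17795 in COX2i, 12512 in COX2i + 5-AZA and 5369 in IRF3/7. The log2 ratio was -0.51 (-0.55 to -0.46) for COX2i + 5-AZA over COX2i, -1.73 (-1.78 to -1.68) for IRF3/7 over COX2i and -1.22 (-1.25 to -1.19) for IRF3/7 over COX2i + 5-AZA. In COX2i, 1 cell held 995 of the 4540 Gzmc UMIs (21.9%) and 150 of the 655 Gzmb UMIs (22.9%). Other genes of the cluster did not follow Gzmc. Gzmd stood at 555 CPM in CTRL, 184 in COX2i, 738 in COX2i + 5-AZA and 670.2 in IRF3/7. Gzme stood at 247 CPM in CTRL, 90.1 in COX2i, 399.7 in COX2i + 5-AZA and 311 in IRF3/7. Their log2 ratios were 1.86 (1.44 to 2.31) and 1.79 (1.19 to 2.45) for IRF3/7 over COX2i. Gzmf stood at 0 CPM in CTRL, 823 in COX2i, 771 in COX2i + 5-AZA and 1568 in IRF3/7, but 208 of its 210 UMIs in COX2i lay in 1 cell and only 3 COX2i cells carried it. In COX2i 1 cell also held 29 of the 47 Gzmd UMIs and 1 held 17 of the 23 Gzme UMIs. Gzmg had 0 UMIs in CTRL and COX2i and stood at 64.9 CPM in COX2i + 5-AZA and 88.6 in IRF3/7, at least 2.46 and at least 2.91 higher on the log2 scale than the 3 UMIs that a count of 0 allows in COX2i. Without the 10% of cells with most UMIs, the log2 ratios for IRF3/7 over COX2i were 0.34 for Gzmd and 0.46 for Gzme, and Gzmf was 0.31 for IRF3/7 over COX2i + 5-AZA. Without NK-labelled cells in which over 1% of UMIs came from monocyte and macrophage genes, Gzmf stood at 963 CPM in COX2i, 935 in COX2i + 5-AZA and 1039 in IRF3/7, and Gzmg at 80.6 in COX2i + 5-AZA and 9.55 in IRF3/7. Those values depend on Spp1, which is one of the monocyte and macrophage genes. The cells left out of IRF3/7 held 44.7% of its Gzmf and 91.0% of its Gzmg UMIs, but 2.38% and 1.12% when Spp1 was not counted, and the Gzmf ratio of IRF3/7 to COX2i + 5-AZA was then 0.86 on the log2 scale. The clustered genes are close copies. Transcripts of Gzmd and Gzme were 93.5% identical over their aligned length, and those of Gzme and Gzmg 90.3%, so the split between these genes is uncertain. Gzmb and Gzmc were 77.2% identical with no shared run over 49 bases, and Gzma was 55.6% to 58.8% identical to the others.

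The same contrast was present cell by cell when each cell was thinned at random to 1500 UMIs, which kept 10 NK cells of CTRL, 39 of COX2i, 355 of COX2i + 5-AZA and 510 of IRF3/7. Cells with fewer UMIs were left out, 11 of them in COX2i, so the thinned values describe the deeper cells. The median cell then held 14 Gzmc UMIs in COX2i, 1 in COX2i + 5-AZA and 0 in IRF3/7. The median number of Gzmb UMIs was 2, 7 and 12, and that of Gzma UMIs 0, 11 and 16, in the same order. Cells with more Gzmb than Gzmc were 20.5% (9.30 to 36.5) in COX2i, 56.3% (51.0 to 61.6) in COX2i + 5-AZA and 81.0% (77.3 to 84.3) in IRF3/7. Cells with more Gzmc than Gzmb were 64.1% (47.2 to 78.8), 36.6% (31.6 to 41.9) and 15.7% (12.6 to 19.1). The cell richest in granzyme C still held 71 Gzmc UMIs per 1500 in IRF3/7, against 122 in COX2i.

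Cells with Gzmb and no Gzmc UMI made up 12.8% of COX2i, 39.2% of COX2i + 5-AZA and 55.5% of IRF3/7, and cells with both 48.7%, 50.7% and 40.8%. Cells with Gzmc and no Gzmb UMI made up 28.2%, 5.07% and 1.57%. The cells with at least 1 Gzmb UMI were 30% in CTRL, 61.5% in COX2i, 89.9% in COX2i + 5-AZA and 96.3% in IRF3/7 after thinning, and 45.5%, 68%, 94.05% and 99.1% before it. Those with Gzmc were 40%, 76.9%, 55.8% and 42.4% after thinning and 45.5%, 62%, 52.9% and 45.6% before it. The COX2i share rose from 62% to 76.9% since the shallow COX2i cells left out seldom carried Gzmc, which widens the thinned contrast with that library. Gzma was found in 50%, 48.7%, 85.9% and 93.5% of thinned cells and in 63.6%, 60%, 91.1% and 95.1% of unthinned cells. In cDC2, dendritic cells that should lack these genes, no more than 1.97% of cells thinned in the same way carried a UMI of any of these granzymes, at median depths before thinning of 3166.5 to 4780.5 UMIs against 2736 to 5770 in the NK cells.

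Granzyme UMIs were also found in monocytes and macrophages, and the part of free RNA in the NK values was not tested. The ratio of Gzmb to Gzmc UMIs was 0.144 in NK cells and 1.00 in monocytes and macrophages of COX2i, 0.494 and 0.536 in COX2i + 5-AZA, and 1.97 and 1.66 in IRF3/7. Monocytes and macrophages with a Gzmb UMI were 0.366%, 2.47% and 4.03% of their class in these libraries, and those with a Gzmc UMI 0.881%, 5.22% and 2.44%.

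**Figure D2:**
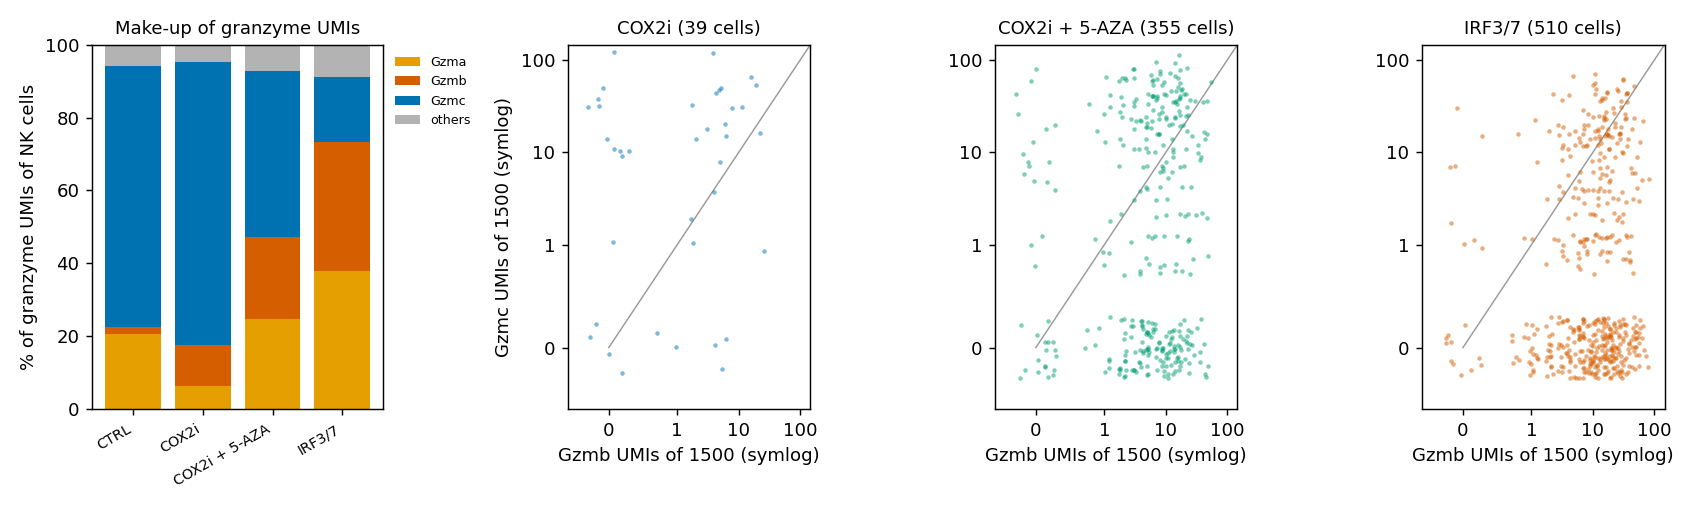
Left, percent of all granzyme UMIs of the NK cells in each library that were Gzma, Gzmb, Gzmc or other granzymes, as stacked bars. Right, Gzmb against Gzmc UMIs of each NK cell thinned to 1500 UMIs, on axes linear near 0 and logarithmic above, with a small jitter and the line of equality, for the 39 cells of COX2i, 355 of COX2i + 5-AZA and 510 of IRF3/7: 64.1%, 36.6% and 15.7% of the cells lie on the Gzmc side of the line.

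Among the 7 marker genes, 2 were at least 2-fold higher and 0 lower in COX2i + 5-AZA over COX2i (median log2 ratio 0.90). Of all 5041 genes compared, 4.4% were higher, 0.992% lower and 5.4% either, at a median of -0.03. These 222 higher genes became 110 without the 10% of cells with most UMIs, 145 without cells over 1% monocyte and macrophage UMIs and 78 in thinned cells. In IRF3/7 over COX2i, 4 were higher and 1 lower (median 1.34). Of all 5018 genes, 6.7% were higher, 3.11% lower and 9.8% either, at a median of -0.07. These 336 higher and 156 lower genes became 452 and 89 when the pools were scaled by their median ratio. In IRF3/7 over COX2i + 5-AZA, 0 were higher and 1 lower (median 0.45). Of all 6769 genes, 1.98% were higher, 2.87% lower and 4.85% either, at a median of -0.06. The 194 lower genes became 84, 89 and 41 in the same settings. Prf1, perforin, stood at 1664 CPM in CTRL, 1423 in COX2i, 2649 in COX2i + 5-AZA and 3601 in IRF3/7. Nkg7, a granule membrane protein needed for efficient degranulation, stood at 2249 CPM in CTRL, 1269.9 in COX2i, 2508 in COX2i + 5-AZA and 3532 in IRF3/7. Both were at least 2-fold higher in IRF3/7 than in COX2i, with log2 ratios of 1.34 (1.19 to 1.50) and 1.48 (1.31 to 1.64), and both missed 2-fold in COX2i + 5-AZA over COX2i, at 0.90 (0.74 to 1.05) and 0.98 (0.82 to 1.15). Perforin was detected in 80%, 61.5%, 88.2% and 92.0% of thinned cells of CTRL, COX2i, COX2i + 5-AZA and IRF3/7, and in 90.9%, 78%, 93.8% and 95.8% before thinning.

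The granzyme and granule protein list had 7 genes at least 2-fold higher and 0 lower of 22 in COX2i + 5-AZA over COX2i (median 0.54). In IRF3/7, 8 were higher and 1 lower of 22 over COX2i (median 0.75), and 1 higher and 2 lower of 23 over COX2i + 5-AZA (median 0.31). The higher shares of all genes tested were 4.4%, 6.7% and 1.98%, and the lower shares 0.992%, 3.11% and 2.87%. The 1 higher gene of the last comparison was Gzmf. Of the 7 higher genes of the first, Gzmd was at 0.0003 and Gzme at 0.15 without the 10% of cells with most UMIs. As a mean of per-cell CPM, Gzmg was at 0.78 and Ctsc at 0.69. Serpinb9b, an inhibitor related to the one that guards lymphocytes against their own granzyme B, stood at 92.4 CPM in CTRL, 62.7 in COX2i, 194 in COX2i + 5-AZA and 242 in IRF3/7. The log2 ratios over COX2i were 1.63 (0.91 to 2.45) and 1.95 (1.23 to 2.77). Serpinb9 itself, that inhibitor, stood at 555 CPM in CTRL, 506 in COX2i, 616 in COX2i + 5-AZA and 959 in IRF3/7, with 0.92 (0.67 to 1.19) for IRF3/7 over COX2i. Ctsc, the protease that trims progranzymes into active enzymes, stood at 770.3 CPM in CTRL, 784 in COX2i, 1603 in COX2i + 5-AZA and 705 in IRF3/7. NK-labelled cells in which over 1% of UMIs came from monocyte and macrophage genes held 70.5%, 67.4% and 45.5% of the Ctsc UMIs in COX2i, COX2i + 5-AZA and IRF3/7. Without them Ctsc stood at 270 CPM, 682 CPM and 461 CPM, so that COX2i was the lowest of these 3 in place of IRF3/7. Serglycin (Srgn), the proteoglycan that packs granules, was level, at 2650 CPM in CTRL, 2328 in COX2i, 2744 in COX2i + 5-AZA and 2795 in IRF3/7. The death ligand Fasl stood at 92.4 CPM in CTRL, 169 in COX2i, 234 in COX2i + 5-AZA and 276 in IRF3/7 and did not reach 2-fold in any comparison. The machinery of granule release (Rab27a, Unc13d, Stx11, Stxbp2) also stayed within 2-fold, with log2 ratios of 0.63, 0.77, 0.60 and 0.23 for IRF3/7 over COX2i.

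Genes that type I interferon induces stood higher in the IRF3/7 NK cells than in the others. Of 18 listed type I-skewed interferon genes, 17 were in the table, and all 17 that could be compared were at least 2-fold higher in IRF3/7 than in COX2i, with log2 ratios from 1.40 to 5.23 and a median of 3.62. The same 17 were at least 2-fold higher in IRF3/7 than in COX2i + 5-AZA, with log2 ratios from 1.25 to 4.25 and a median of 2.48. In COX2i + 5-AZA over COX2i only 9 had enough UMIs, of which 2 were at least 2-fold higher and 0 lower, at a median of 0.45. Of all genes tested, 6.7% were higher in IRF3/7 over COX2i and 1.98% in IRF3/7 over COX2i + 5-AZA. In COX2i + 5-AZA over COX2i, 4.4% were. The list was chosen with earlier results of these data known. Summed over the list, NK cells held 616 CPM in CTRL, 1305 in COX2i, 1842 in COX2i + 5-AZA and 7928 in IRF3/7. The other cells of the same libraries held 1540, 1723, 4355 and 25038 CPM, so the libraries ranked in 1 order in NK cells and in the rest. The median over the list in COX2i + 5-AZA over COX2i moved between 0.38 and 1.62 with the settings tried, and the IRF3/7 medians stayed between 2.84 and 3.79 over COX2i and between 2.45 and 2.65 over COX2i + 5-AZA.

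The promoter windows of 3 of these genes, picked from those that held the ISRE core, are shown as above with only that motif in capitals.
Isg15, chr4:156200819-156201068, minus strand: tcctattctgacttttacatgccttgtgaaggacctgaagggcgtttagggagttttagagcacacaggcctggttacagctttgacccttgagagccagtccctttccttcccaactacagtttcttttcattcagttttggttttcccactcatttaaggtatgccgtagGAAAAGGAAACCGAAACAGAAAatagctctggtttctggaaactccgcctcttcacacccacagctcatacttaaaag
Ifit1, chr19:34640639-34640888, plus strand: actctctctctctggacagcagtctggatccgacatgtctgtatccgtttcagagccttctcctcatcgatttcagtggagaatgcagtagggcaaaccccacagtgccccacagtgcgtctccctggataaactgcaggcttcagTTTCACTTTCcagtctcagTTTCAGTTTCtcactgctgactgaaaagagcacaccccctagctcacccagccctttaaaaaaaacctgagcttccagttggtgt
Rsad2, chr12:26456453-26456702, minus strand: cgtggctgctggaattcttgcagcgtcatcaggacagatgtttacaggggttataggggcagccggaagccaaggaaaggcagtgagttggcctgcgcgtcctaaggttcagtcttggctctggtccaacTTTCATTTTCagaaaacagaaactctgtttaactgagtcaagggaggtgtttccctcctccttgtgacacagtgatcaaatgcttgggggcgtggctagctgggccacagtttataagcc
Isg15 held 3 overlapping matches within 57 to 78 bases before its start, Ifit1 held matches at 95 to 104 and 76 to 85 bases, and Rsad2 held 1 at 111 to 120 bases. Of the 12 listed genes with a window in the table, 5 held the ISRE core (Isg15, Ifit1, Ifit3, Rsad2 and Bst2), against 2.98% of all windows. The windows of Irf7, Ifit2, Oasl1, Oasl2, Ifi44, Cmpk2 and Xaf1 held none. Of the 7 granzyme genes from Gzma to Gzmg, 1 held it, which was Gzma.

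Isg15, a ubiquitin-like modifier, lies on chromosome 4 (156199424 to 156200818, minus strand) and stood at 0 CPM in CTRL, 86.2 in COX2i, 229.9 in COX2i + 5-AZA and 1157 in IRF3/7. Its log2 ratio was 1.41 (0.80 to 2.10) for COX2i + 5-AZA over COX2i and 3.75 (3.14 to 4.42) for IRF3/7 over COX2i. Irf7, the regulator that amplifies type I interferon production, stood at 154 CPM in CTRL, 66.6 in COX2i, 173 in COX2i + 5-AZA and 971 in IRF3/7, with log2 ratios of 1.38 (0.68 to 2.18) and 3.87 (3.18 to 4.65). As a mean of per-cell CPM the first was 0.70. These were the 2 listed genes at least 2-fold higher in COX2i + 5-AZA than in COX2i. In IRF3/7 the tumour cells overexpressed Irf7 as well, tumour and stromal genes summed to 78.1 CPM (66.4 to 91.3) in its NK cells, and the part of tumour RNA in the Irf7 level was not tested.

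Ifit1, an antiviral protein that binds foreign RNA, had 0 UMIs in CTRL and COX2i and stood at 19 CPM in COX2i + 5-AZA and 161 in IRF3/7, at least 3.77 higher on the log2 scale in IRF3/7 than the 3 UMIs that a count of 0 allows in COX2i. Ifit2 had 2 UMIs in COX2i and stood at 7.84 CPM in COX2i, 43.2 in COX2i + 5-AZA and 294 in IRF3/7, with a log2 ratio of 5.23 (3.37 to 8.28) for IRF3/7 over COX2i. Rsad2, viperin, on chromosome 12 (26442746 to 26456452, minus strand), stood at 15.7 CPM in COX2i, 38.5 in COX2i + 5-AZA and 369 in IRF3/7, and the 4 UMIs in COX2i left the ratio of COX2i + 5-AZA to COX2i unsettled, at 1.30 (-0.12 to 3.21). IRF3/7 stood apart from both celecoxib libraries for these genes, and the celecoxib libraries could not be told from each other for Rsad2 at this depth. Ifi44 stood at 19.6 CPM in COX2i, 12.7 in COX2i + 5-AZA and 241 in IRF3/7 and had the widest gap of IRF3/7 over COX2i + 5-AZA within the list, 4.25 (3.66 to 4.91). Usp18, the protease that removes ISG15 and dampens the interferon receptor, stood at 78.4 CPM in COX2i, 107 in COX2i + 5-AZA and 587 in IRF3/7. At the low end of the list, Zbp1, a sensor of Z-form nucleic acid, stood at 259 CPM in COX2i, 244 in COX2i + 5-AZA and 682 in IRF3/7. Bst2, tetherin, stood at 372 CPM in COX2i, 500.4 in COX2i + 5-AZA and 1191 in IRF3/7. Their log2 ratios were 1.40 (1.04 to 1.78) and 1.68 (1.38 to 1.99) for IRF3/7 over COX2i. The celecoxib libraries were level in Zbp1, at -0.09 (-0.46 to 0.31).

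**Figure D3:**
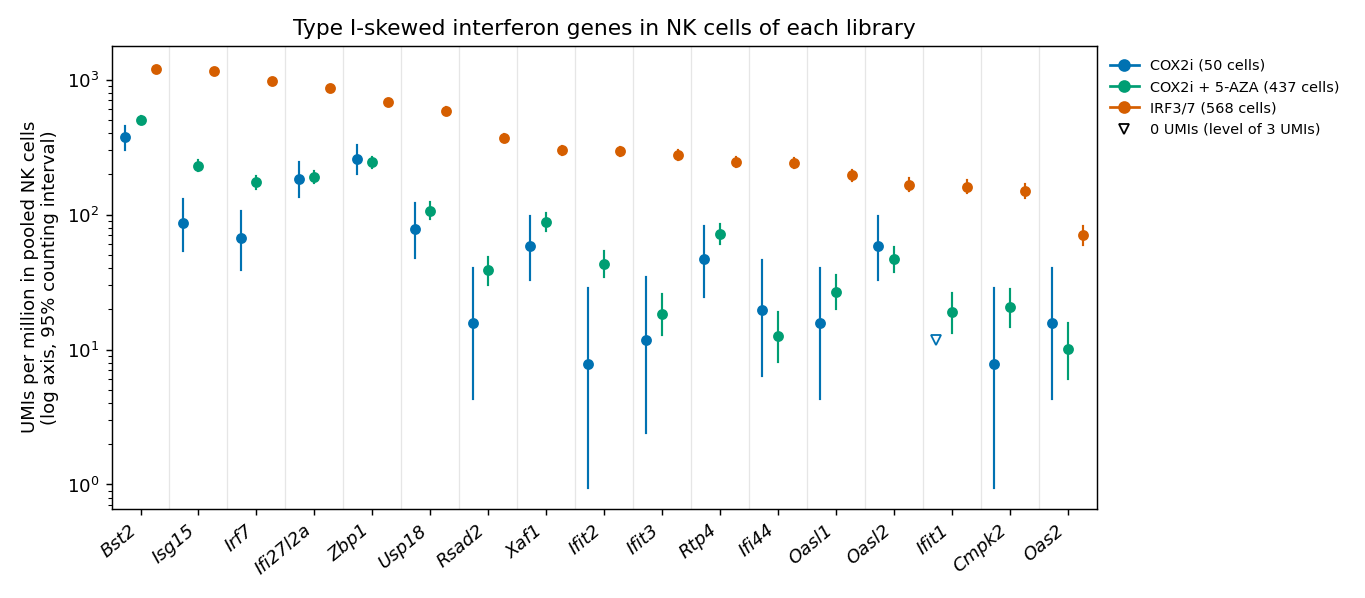
Level of 17 type I-skewed interferon genes in NK cells of COX2i, COX2i + 5-AZA and IRF3/7, in CPM on a log axis. Dots are the summed UMIs with their 95% counting interval and the open triangle marks Ifit1, with 0 UMIs in COX2i, at the level of 3 UMIs: the IRF3/7 dot is the highest for all 17 genes.

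Myeloid cells express many of these genes more strongly, so the NK levels were set beside those of monocytes and macrophages. In IRF3/7, Isg15 stood at 5007 CPM in monocytes and macrophages against 1157 in NK cells. Over the 17 genes, the NK level was 27.4% of that of the monocytes and macrophages in IRF3/7 (median, genes from 13.6% to 84.5%). The monocyte and macrophage genes themselves stood at a median of 9.51% of their level there (genes from 4.23% to 772%, the highest being Spp1). The same 2 medians were 35.3% and 21.8% in COX2i + 5-AZA, and 65.8% and 9.27% in COX2i, where fewer interferon genes entered. After thinning, 55.1% of NK cells and 94.1% of cDC2 in IRF3/7 had an Isg15 UMI, 20.3% and 42.9% in COX2i + 5-AZA, and 5.13% and 19.5% in COX2i, and before thinning 68.8%, 30.7% and 12% of NK cells did. These NK shares lie below those of cDC2, which themselves respond to interferon, so they are not read as shares of expressing cells. Leaving out NK cells with over 1% of their UMIs in monocyte and macrophage genes left Isg15 at 59.6 CPM in COX2i, 177 in COX2i + 5-AZA and 973 in IRF3/7. The part of free RNA in the interferon genes was not tested.

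Genes skewed towards IFNγ, the cytokine that NK cells themselves make, followed with smaller differences. Of 15 measured, 2 were at least 2-fold higher and 1 lower in COX2i + 5-AZA over COX2i (median 0.65), and in IRF3/7 over COX2i 8 were higher and 1 lower (median 1.05). Over COX2i + 5-AZA, IRF3/7 had 1 higher and 0 lower (median 0.31). Of all genes, 4.4%, 6.7% and 1.98% were higher and 0.992%, 3.11% and 2.87% lower. Irgm1, an immunity-related GTPase, stood at 74.5 CPM in COX2i, 158 in COX2i + 5-AZA and 287 in IRF3/7. Ifi47, another, stood at 133 CPM in COX2i, 214 in COX2i + 5-AZA and 399 in IRF3/7. Their log2 ratios were 1.95 (1.29 to 2.69) and 1.58 (1.09 to 2.12) for IRF3/7 over COX2i. Irf1, the transcription factor of the IFNγ response, stood at 196 CPM in COX2i, 344 in COX2i + 5-AZA and 410 in IRF3/7, with 1.06 (0.65 to 1.51). Cxcl9, a chemokine made mainly by macrophages and dendritic cells, stood at 180.3 CPM in COX2i, 72.2 in COX2i + 5-AZA and 42.3 in IRF3/7. Without NK-labelled cells over 1% monocyte and macrophage UMIs it stood at 9.17 CPM, 55.1 and 27.5, so that its order turned, and 44 of its 46 UMIs in COX2i lay in 1 cell. Gbp2 was at -0.98 (-1.25 to -0.72) for IRF3/7 over COX2i, and without those cells it stood at 220.01 CPM in COX2i and 235 in IRF3/7. The MHC class I presentation list differed little, with 0 of 12, 1 of 12 and 0 of 13 genes at least 2-fold higher in the 3 comparisons, 0 lower in each, and medians of 0.16, 0.38 and 0.18. The 1 gene was Nlrc5, the transactivator of MHC class I genes, at 114 CPM in COX2i, 195 in COX2i + 5-AZA and 294 in IRF3/7. The class I heavy chain H2-K1 stood at 1623 CPM in COX2i, 2010.2 in COX2i + 5-AZA and 2688 in IRF3/7.

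Several receptors by which NK cells read their targets were higher in IRF3/7 than in COX2i. Of 19 activating receptors and adaptors, 3 were at least 2-fold higher and 0 lower in COX2i + 5-AZA over COX2i (median 0.55), where 4.4% of all genes tested were higher. In IRF3/7 over COX2i, 7 were higher and 0 lower of 19 (median 0.78), where 6.7% of all genes were higher. In IRF3/7 over COX2i + 5-AZA, 0 were higher and 1 lower of 21 (median 0.35), and the 1 was the Fc receptor gene Fcgr3, which macrophages also express, at 408 CPM in COX2i, 552 in COX2i + 5-AZA and 204 in IRF3/7. NK-labelled cells in which over 1% of UMIs came from monocyte and macrophage genes held 59.6%, 62.0% and 39.5% of the Fcgr3 UMIs in these libraries. Without them Fcgr3 stood at 193, 273 and 148 CPM and no longer reached 2-fold. Klrb1c, which encodes NK1.1, stood at 185 CPM in CTRL, 90.1 in COX2i, 194 in COX2i + 5-AZA and 352 in IRF3/7, with log2 ratios over COX2i of 1.10 (0.49 to 1.78) and 1.96 (1.37 to 2.63), or 0.46 and 0.95 as a mean of per-cell CPM. Cd160, a receptor that binds MHC class I and HVEM, had 8 UMIs in COX2i and stood at 31.4 CPM in COX2i, 102 in COX2i + 5-AZA and 145 in IRF3/7, with 1.71 (0.70 to 2.94) and 2.21 (1.21 to 3.44). Klra8, which encodes the activating receptor Ly49H, had 3 UMIs in COX2i, with log2 ratios of 3.05 (1.48 to 5.34) and 3.40 (1.84 to 5.69), and the Klra genes are close paralogs whose counts are uncertain for that reason. Klrk1, which encodes NKG2D, did not reach 2-fold in any comparison, at 1078.5 CPM in CTRL, 796 in COX2i, 689.8 in COX2i + 5-AZA and 1082 in IRF3/7. Klrd1, which encodes CD94, stood at 986 CPM in CTRL, 549 in COX2i, 501 in COX2i + 5-AZA and 838 in IRF3/7. Cd244a, which encodes 2B4, was at least 2-fold higher in IRF3/7 than in COX2i, at 1.37 (0.93 to 1.84), as was Lat2, an adaptor, at 1.25 (0.86 to 1.67). Slamf7 stood at 1.01 (0.60 to 1.46), but missed 2-fold in 7 of the other settings and was at 0.40 in thinned cells.

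The list of NK lineage genes had 3 higher and 0 lower of 15, 4 higher and 0 lower of 14, and 0 higher and 0 lower of 15 in the 3 comparisons (medians 0.05, 0.56 and 0.46). Of the inhibitory receptors and checkpoints, 5 were at least 2-fold higher and 0 lower of 12 in COX2i + 5-AZA over COX2i (median 0.69). In IRF3/7, 4 were higher and 0 lower of 11 over COX2i (median 0.65), and 1 higher and 0 lower of 15 over COX2i + 5-AZA (median -0.09), where 4.4%, 6.7% and 1.98% of all genes were higher. Klrg1, an inhibitory receptor for cadherins that marks mature NK cells, was highest in COX2i + 5-AZA, at 92.4 CPM in CTRL, 90.1 in COX2i, 319 in COX2i + 5-AZA and 189.6 in IRF3/7. The log2 ratio was 1.82 (1.22 to 2.49) over COX2i and -0.75 (-0.94 to -0.56) for IRF3/7 over COX2i + 5-AZA. It was found in 5.13% of thinned NK cells in COX2i, 30.1% in COX2i + 5-AZA and 19.4% in IRF3/7, and in 20%, 46.5% and 28.7% before thinning. No cDC2 of these libraries carried it, and 3 cells, the bound taken for a count of 0, would be 0.457%, 1.18% and 0.802%. Lag3, a checkpoint that binds MHC class II, was highest in IRF3/7, at 30.8 CPM in CTRL, 43.1 in COX2i, 88.1 in COX2i + 5-AZA and 237 in IRF3/7. The log2 ratios were 2.46 (1.61 to 3.47) over COX2i and 1.43 (1.17 to 1.69) over COX2i + 5-AZA. Havcr2, which encodes TIM-3, had 3 UMIs in COX2i and stood level between COX2i + 5-AZA and IRF3/7, at 54.3 and 54.2 CPM. Klrc1, which encodes the inhibitory receptor NKG2A, was highest in CTRL, at 616 CPM in CTRL, 459 in COX2i, 286 in COX2i + 5-AZA and 434 in IRF3/7, and did not reach 2-fold between the 3 larger pools.

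Of the chemokine and cytokine genes, Xcl1 and Ltb were highest in CTRL and COX2i, while Ifng, Ccl3, Ccl4 and Ccl5 were lowest in COX2i among the 3 larger pools. Of the genes NK cells are known to secrete, 3 were at least 2-fold higher and 2 lower of 9 in COX2i + 5-AZA over COX2i (median 0.28, from -0.43 to 0.54 over the settings tried, so that its sign turned). In IRF3/7, 5 were higher and 2 lower of 10 over COX2i (median 0.96), and 3 higher and 0 lower of 10 over COX2i + 5-AZA (median 0.72). All genes tested had 4.4% higher and 0.992% lower, 6.7% and 3.11%, and 1.98% and 2.87%. Xcl1, on chromosome 1 (164931644 to 164935527), encodes the chemokine that draws cDC1, and it was highest in CTRL and COX2i, at 2095 CPM in CTRL, 1250.3 in COX2i, 531 in COX2i + 5-AZA and 403 in IRF3/7. Its log2 ratio was -1.24 (-1.42 to -1.05) for COX2i + 5-AZA over COX2i and -1.63 (-1.82 to -1.44) for IRF3/7 over COX2i. It was found in 59.0% of thinned NK cells in COX2i, 35.8% in COX2i + 5-AZA and 24.1% in IRF3/7, against 1 of 657, 0 of 254 and 0 of 374 cDC2, and in 58%, 43.9% and 31.2% before thinning. Ltb, lymphotoxin β, had the same order, at 616 CPM in CTRL, 399.8 in COX2i, 173 in COX2i + 5-AZA and 104 in IRF3/7, with -1.20 (-1.53 to -0.87) and -1.94 (-2.28 to -1.58). Tnfsf11, which encodes RANKL, was lower in COX2i + 5-AZA than in COX2i, at 61.6 CPM in CTRL, 337 in COX2i, 75.4 in COX2i + 5-AZA and 11.4 in IRF3/7. The log2 ratio was -2.16 (-2.56 to -1.76), and 17.9% of thinned COX2i cells, 3.94% of COX2i + 5-AZA cells and 0.392% of IRF3/7 cells carried it. Before thinning these shares were 32%, 9.61% and 2.99%.

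Ccl5, on chromosome 11 (83525778 to 83530518), encodes a chemokine for T cells and monocytes that NK cells store and release. It stood at 4159.9 CPM in CTRL, 745 in COX2i, 4179.7 in COX2i + 5-AZA and 2255.5 in IRF3/7, so that COX2i was the lowest of the 4 libraries. The log2 ratio was 2.49 (2.28 to 2.70) for COX2i + 5-AZA over COX2i and -0.89 (-0.94 to -0.84) for IRF3/7 over COX2i + 5-AZA. Ccl5 was found in 28.2%, 57.7% and 46.5% of thinned NK cells in COX2i, COX2i + 5-AZA and IRF3/7, against 1.22%, 7.87% and 16.04% of cDC2, and in 42%, 69.8% and 56.7% before thinning. Ifng stood at 92.4 CPM in CTRL, 129 in COX2i, 199 in COX2i + 5-AZA and 418 in IRF3/7, with log2 ratios of 0.62 (0.11 to 1.18), 1.69 (1.19 to 2.24) and 1.07 (0.89 to 1.25). As a mean of per-cell CPM the last 2 were 0.65 and 0.93. Cells with an Ifng UMI were 10.3%, 21.4% and 34.1% after thinning, against 0 of 657, 1 of 254 and 0 of 374 cDC2, and 20%, 35.0% and 43.1% before it, so the order in the share and in the CPM was the same. Ccl3 and Ccl4, chemokines that draw macrophages and T cells, had 5 UMIs each in COX2i. Ccl4 stood at 19.6 CPM in COX2i, 144 in COX2i + 5-AZA and 382 in IRF3/7, with 2.88 (1.64 to 4.52) and 4.29 (3.06 to 5.91) over COX2i. Ccl3 stood at 19.6 CPM in COX2i, 107 in COX2i + 5-AZA and 176 in IRF3/7. Both are also macrophage genes, and their shares are not read as expression. After thinning, 0 of 39 NK cells in COX2i (where 3 cells, the bound taken for a count of 0, would be 7.69%), 13.2% in COX2i + 5-AZA and 17.5% in IRF3/7 had a Ccl4 UMI, against 8.83%, 13.8% and 27.0% of cDC2, and before thinning the NK shares were 8%, 21.1% and 25.4%.

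Among 19 cytokine receptor genes, 3 were at least 2-fold higher and 0 lower in COX2i + 5-AZA over COX2i (median 0.03). For IRF3/7, 4 were higher and 1 lower of 17 over COX2i (median 0.23), and over COX2i + 5-AZA 1 higher and 2 lower of 21 (median 0.03). The higher and lower shares of all genes were 4.4% and 0.992%, 6.7% and 3.11%, and 1.98% and 2.87%, so the last counts lie near them. Both chains of the IL-12 receptor were among them. Il12rb1 stood at 247 CPM in CTRL, 86.2 in COX2i, 256 in COX2i + 5-AZA and 511 in IRF3/7, with log2 ratios over COX2i of 1.57 (0.95 to 2.26) and 2.57 (1.96 to 3.25). Il12rb2 stood at 308 CPM in CTRL, 114 in COX2i, 278 in COX2i + 5-AZA and 271 in IRF3/7, with 1.29 (0.75 to 1.88) and 1.25 (0.72 to 1.85), or 0.62 and 0.71 in thinned cells. The receptors of type I interferon and IFNγ stayed within 2-fold, with Ifnar1 at 169 CPM in COX2i, 194 in COX2i + 5-AZA and 198 in IRF3/7 and Ifngr1 at 1337 CPM in COX2i, 1108.5 in COX2i + 5-AZA and 1189 in IRF3/7. Cd27, a costimulatory receptor of less mature NK cells, was highest in IRF3/7, at 39.2 CPM in COX2i, 55.4 in COX2i + 5-AZA and 156 in IRF3/7, with 2.00 (1.10 to 3.07) over COX2i and 1.50 (1.17 to 1.83) over COX2i + 5-AZA. Tnfrsf18, which encodes GITR, was the 1 receptor at least 2-fold lower in IRF3/7 than in COX2i, at -1.03 (-1.36 to -0.70), and at -0.65 in thinned cells.

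Of the homing and adhesion genes, 1 was higher and 0 lower of 16 in COX2i + 5-AZA over COX2i (median 0.23). In IRF3/7, 3 were higher and 2 lower of 17 over COX2i (median 0.53, or -0.03 at the lowest of the settings tried), and 2 higher and 2 lower of 18 over COX2i + 5-AZA (median 0.22). In these comparisons 5.4%, 9.8% and 4.85% of all genes reached 2-fold in either direction, and the first count lies near that share. Cd69, an early activation marker that holds lymphocytes in tissue, stood at 121.5 CPM in COX2i, 147 in COX2i + 5-AZA and 352 in IRF3/7, with 1.54 (1.02 to 2.10) and 1.26 (1.06 to 1.47) for IRF3/7 over COX2i and over COX2i + 5-AZA. As a mean of per-cell CPM the first was 0.76. Cxcr4 ran the other way at 924 CPM in CTRL, 431 in COX2i, 497 in COX2i + 5-AZA and 195 in IRF3/7, with -1.15 (-1.46 to -0.83) and -1.35 (-1.53 to -1.18). Of the maturation and residency genes, 2 were higher and 1 lower of 11, 3 higher and 1 lower of 11, and 1 higher and 2 lower of 14 in the 3 comparisons (medians 0.50, 0.62 and -0.06), but the second median ran from -0.11 to 0.93 and the third from -0.10 to 0.18 over the settings tried. Kit, the stem cell factor receptor of immature NK cells, was highest in CTRL and COX2i, at 247 CPM in CTRL, 149 in COX2i, 65.9 in COX2i + 5-AZA and 48.8 in IRF3/7. The log2 ratios over COX2i were -1.18 (-1.71 to -0.61) and -1.61 (-2.17 to -1.03).

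Few of the transcription factors of NK cells reached 2-fold, as did few of all genes tested (5.4%, 9.8% and 4.85% in either direction in the 3 comparisons). Of 23 in the first comparison, 1 was at least 2-fold higher and 1 lower (median 0.14), in the second 2 higher and 1 lower of 23 (median 0.23), and in the third 1 higher and 0 lower of 24 (median -0.04). Eomes and Tbx21, the T-box factors of the lineage, did not reach 2-fold. Eomes stood at 462 CPM in CTRL, 309.6 in COX2i, 286 in COX2i + 5-AZA and 392 in IRF3/7. Tbx21 stood at 524 CPM in CTRL, 282 in COX2i, 292 in COX2i + 5-AZA and 400.1 in IRF3/7. Ikzf2, which encodes Helios, was highest in CTRL and COX2i, at 185 CPM in CTRL, 153 in COX2i, 46.4 in COX2i + 5-AZA and 33.8 in IRF3/7. The log2 ratios over COX2i were -1.72 (-2.28 to -1.14) and -2.18 (-2.76 to -1.57). Myc was at least 2-fold higher in IRF3/7 than in COX2i, at 1.37 (0.93 to 1.84), while Id2, a factor required for NK cell development, stood at 1.08 (0.91 to 1.24) but missed 2-fold in 5 of the other settings, at 0.72 in thinned cells. The higher factor in COX2i + 5-AZA was Prdm1, which encodes BLIMP-1, with 1 UMI in COX2i and a log2 ratio of 3.76 (1.25 to 9.08).

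Some cell cycle genes were lower in IRF3/7 than in COX2i, where 3.11% of all genes tested were at least 2-fold lower. That share was 0.992% in COX2i + 5-AZA over COX2i and 2.87% in IRF3/7 over COX2i + 5-AZA. In COX2i, 35.9% (21.2 to 52.8) of thinned NK cells had a UMI of Mki67 or Top2a, against 28.5% (23.8 to 33.5) in COX2i + 5-AZA and 20.8% (17.3 to 24.6) in IRF3/7, and 50% (18.7 to 81.3) of the 10 CTRL cells. The intervals of COX2i and of the other libraries overlapped. Of the G2/M genes, 0 were at least 2-fold higher in each comparison, with 1 lower of 17 in COX2i + 5-AZA over COX2i (median -0.60), 6 lower of 16 in IRF3/7 over COX2i (median -0.96) and 0 lower of 23 in IRF3/7 over COX2i + 5-AZA (median -0.29). The S phase genes had 0 higher in each and 2 lower of 17, 2 lower of 18 and 0 lower of 22 (medians -0.46, -0.49 and -0.10), and the first of these medians was 0.08 when the cells were thinned. Top2a, the topoisomerase of dividing cells, stood at 369.8 CPM in CTRL, 725 in COX2i, 452 in COX2i + 5-AZA and 373 in IRF3/7. Mki67 stood at 431 CPM in CTRL, 489.9 in COX2i, 335 in COX2i + 5-AZA and 290.1 in IRF3/7.

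Genes of glycolysis and hypoxia had 1 higher and 0 lower of 18, 1 higher and 4 lower of 17, and 0 higher and 2 lower of 18 in the 3 comparisons (medians -0.17, -0.49 and -0.37), beside 0.992%, 3.11% and 2.87% of all genes lower. Tpi1, triose phosphate isomerase, stood at 608 CPM in COX2i, 339 in COX2i + 5-AZA and 230.4 in IRF3/7, with -1.40 (-1.66 to -1.13) for IRF3/7 over COX2i. Ldha, lactate dehydrogenase, stood at 1603 CPM in COX2i, 1188 in COX2i + 5-AZA and 916 in IRF3/7. None of 23 nuclear-encoded respiratory chain genes reached 2-fold in any comparison (medians -0.21, -0.50 and -0.23). The list of amino acid transport, mTORC1 and MYC targets had 0 of 17, then 1 lower of 18 and 1 higher of 19 (medians -0.18, -0.25 and -0.11), and the lower gene was Odc1, the rate-limiting enzyme of polyamine synthesis, at 1101 CPM in COX2i, 747 in COX2i + 5-AZA and 395 in IRF3/7. Early response and stress genes had 1, 3 and 1 higher of 16 and 0 lower in each (medians 0.27, 0.54 and 0.13), beside 4.4%, 6.7% and 1.98% of all genes higher, but the first median was -0.34 and the second -0.01 at the lowest of the other settings.

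The pathways the treatments address were examined too. Of the prostaglandin receptor and cAMP response genes, 0 of 11, 0 of 11 and 0 of 13 reached 2-fold (medians -0.13, -0.23 and -0.16), and Ptger4, the EP4 receptor for prostaglandin E2, stood at 61.6 CPM in CTRL, 35.3 in COX2i, 45.9 in COX2i + 5-AZA and 48.3 in IRF3/7. Of the DNA methylation enzymes and response genes, 1 was higher and 0 lower of 12 in COX2i + 5-AZA over COX2i (median 0.09). In IRF3/7, 1 was higher and 1 lower of 11 over COX2i (median -0.09), and 0 higher and 1 lower of 12 over COX2i + 5-AZA (median -0.06). Gadd45b, a stress gene linked to demethylation, stood at 47 CPM in COX2i, 166 in COX2i + 5-AZA and 183 in IRF3/7. Dnmt1, the maintenance methyltransferase, stood at 404 CPM in COX2i, 239 in COX2i + 5-AZA and 227 in IRF3/7. The TGFβ response list had 1 higher and 0 lower of 10, 0 higher and 2 lower of 11, and 0 higher and 1 lower of 11 (medians 0.08, 0.18 and -0.22). All genes tested had 4.4% higher and 0.992% lower, then 6.7% and 3.11%, then 1.98% and 2.87%, and 1 gene of 10 to 12 is near such shares.

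**Figure D4:**
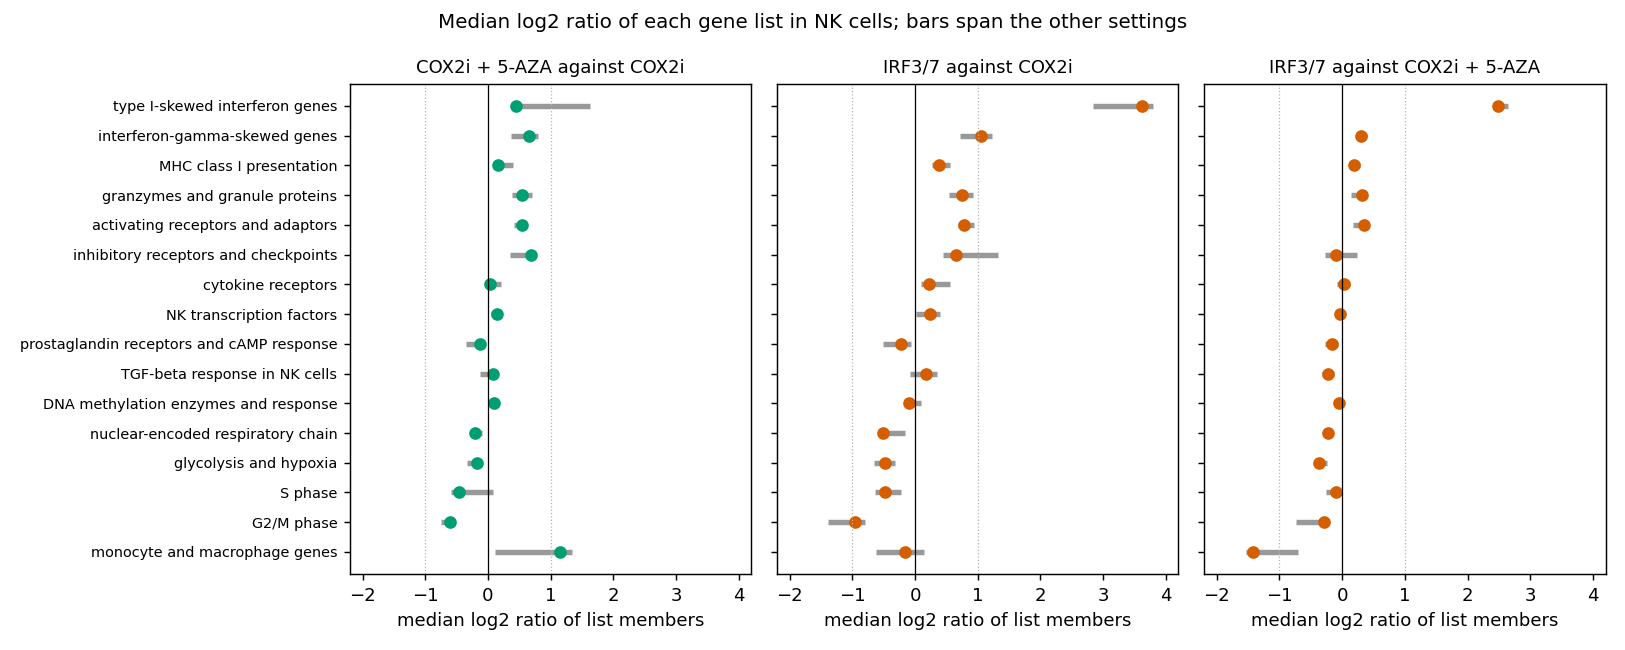
Median log2 ratio of CPM over the compared genes of 16 lists in NK cells, for COX2i + 5-AZA over COX2i, IRF3/7 over COX2i and IRF3/7 over COX2i + 5-AZA. Dots are the medians as reported, grey bars span the other settings tried, and dotted lines mark a 2-fold difference: the type I-skewed interferon genes lie furthest to the right in both IRF3/7 comparisons, at 3.62 and 2.48.

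Some NK-labelled cells also carried many monocyte and macrophage UMIs. Over 1% of UMIs came from such genes in 1 NK cell of CTRL, 3 of COX2i, 42 of COX2i + 5-AZA and 62 of IRF3/7. With Spp1 left out of the count, which NK cells of IRF3/7 held at 772% of the monocyte and macrophage level, these numbers were 0, 3, 38 and 27. The 42 cells of COX2i + 5-AZA held 23.4% of its NK UMIs, at a median of 9512.5 UMIs per cell. They held 86.4% of the C1qa UMIs, 80.4% of those of Lyz2 and 91.2% of those of Apoe. These genes are on the list by which the cells were picked, so high shares were set by that choice. Of the Gzmc and Ccl5 UMIs, which are not on that list, the same cells held 11.9% and 9.56%.

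The monocyte and macrophage list had 11 genes at least 2-fold higher and 1 lower of 18 in COX2i + 5-AZA over COX2i (median 1.16). In IRF3/7, 4 were higher and 6 lower of 15 over COX2i (median -0.15), and 1 higher and 13 lower of 19 over COX2i + 5-AZA (median -1.42). Among all genes, 4.4% were higher and 0.992% lower in the first comparison, 6.7% and 3.11% in the second, and 1.98% and 2.87% in the third. Without the cells over 1%, which were picked by these same genes, the first median was 0.20 and the last -0.94. The list summed to 3882.5 CPM in NK cells of CTRL, 5817 in COX2i, 9498 in COX2i + 5-AZA and 5703 in IRF3/7, against 69272, 47449, 37835 and 24513 in the other cells. The dendritic cell and MHC class II genes had 1 higher and 1 lower of 5 (median 0.63), 0 higher and 4 lower of 4 (median -1.32), and 0 higher and 4 lower of 5 (median -2.03). They summed to 647, 4241, 6530.5 and 1570 CPM. Gzma, Gzmb, Gzmc and Ccl5 kept their order between libraries without those cells. Gzma then stood at 1558 CPM in COX2i, 7878.5 in COX2i + 5-AZA and 11992 in IRF3/7, and Gzmc at 20658, 14395 and 5311. Gzmb then stood at 2883, 7097 and 11000 CPM, and Ccl5 at 807, 4936.5 and 2386.

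Spp1, which encodes osteopontin, an adhesive glycoprotein best known from macrophages, was itself high in the NK cells. It stood at 1509.9 CPM in CTRL, 1058 in COX2i, 1080 in COX2i + 5-AZA and 2760.5 in IRF3/7, and at 1008 CPM in COX2i, 974 in COX2i + 5-AZA and 2044 in IRF3/7 without the cells over 1%. Monocytes and macrophages held 6576 CPM in COX2i, 1759 in COX2i + 5-AZA and 357.5 in IRF3/7, so only in the IRF3/7 library was the NK level above theirs. Thinned NK cells with an Spp1 UMI were 51.3% in COX2i, 43.9% in COX2i + 5-AZA and 59.4% in IRF3/7, and 74%, 51.7% and 62.1% before thinning. The cDC2 shares were 41.6%, 15.7% and 9.36% after thinning.

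**Figure D5:**
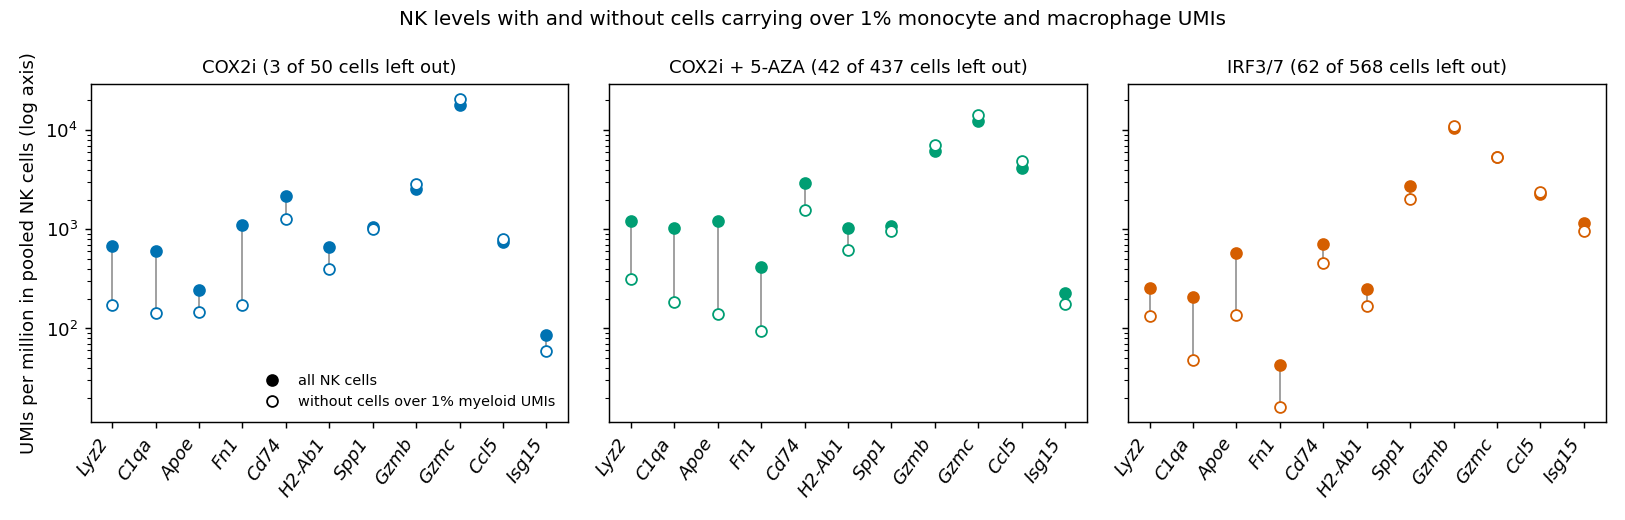
Level of 11 genes in NK cells of COX2i, COX2i + 5-AZA and IRF3/7, in CPM on a log axis, over all NK cells (filled dots) and without the 3, 42 and 62 cells in which over 1% of UMIs came from monocyte and macrophage genes (open dots). In COX2i + 5-AZA, C1qa, one of the genes by which these cells were picked, goes from 1041 to 185 CPM. Gzmb, Gzmc and Ccl5 keep their order between libraries.

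The genes furthest apart between the libraries were taken by a rule on level and difference. In COX2i + 5-AZA over COX2i the 12 furthest higher included Clec4n (4.01), Retnla (at least 3.27), Ms4a4a (3.22), Ifitm1 (3.07), Lst1 (2.89), Ccl4 (2.88), Il1r2 (2.62), Ccl5 (2.49), Ccl3 (2.45), Spint1 (2.41) and Fcgr4 (2.33). Clec4n had 3 UMIs in COX2i, with an interval of 2.45 to 6.29, and all 6 UMIs of Il1r2 lay in 1 cell. The ratio of Il1r2 was 0.40 without the 10% of cells with most UMIs, and thinned cells gave 0.90 for Lst1, 0.98 for Ccl3 and 0.69 for Spint1. Several of these are macrophage genes, and 207 of the 215 Retnla UMIs lay in 1 cell. Ifitm1, an interferon-induced membrane protein, did not share that pattern, since it stood at 395 CPM with all cells and at 359 without those over 1%. The 12 furthest lower included Tnfsf11 (-2.16), Ighm (-1.56), Nrgn (-1.38), Xcl1 (-1.24), Ltb (-1.20), Pdgfa (-1.20), Per1 (-1.14), Rrm1 (-1.12), Sf3a1 (-0.98), Cdk1 (-0.97) and S100a9 (-0.96, but 2.82 without cells carrying T cell UMIs).

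In IRF3/7 over COX2i the 12 furthest higher were Ifit2 (5.23), Ifi204 (4.56), Rsad2 (4.56), Slfn1 (4.51), Ccl4 (4.29), Cmpk2 (4.26), F2rl2 (3.92), Phf11b (3.88), Ifi208 (at least 3.85), Ifit1 (at least 3.77), Isg15 (3.75) and Oasl1 (3.64). All but Ccl4 and F2rl2, a gene of the thrombin receptor family, are from families known as interferon-induced. F2rl2 stood at 30.8 CPM in CTRL, 11.8 in COX2i, 64.3 in COX2i + 5-AZA and 178 in IRF3/7. In COX2i, Ifit2, Slfn1 and Cmpk2 had 2 UMIs each and Ifi204 and F2rl2 3 each, with log2 ratios of 4.51 (2.64 to 7.56) for Slfn1, 4.26 (2.39 to 7.31) for Cmpk2, 4.56 (3.01 to 6.84) for Ifi204 and 3.92 (2.36 to 6.21) for F2rl2. The 12 furthest lower were Tuba1b (-1.95), Ltb (-1.94), Pglyrp1 (-1.86), Gzmc (-1.73), Ighm (-1.70), Xcl1 (-1.63), Mt1 (-1.60), Cd74 (-1.58), Odc1 (-1.48), Slc25a4 (-1.46), Nudt4 (-1.45) and H2-Ab1 (-1.40), and Mt1 was at -0.37 when the cells were thinned. Pglyrp1, a peptidoglycan recognition protein stored in granules, stood at 709 CPM in CTRL, 733 in COX2i, 387 in COX2i + 5-AZA and 203 in IRF3/7.

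In IRF3/7 over COX2i + 5-AZA the 12 furthest higher were Ifi44 (4.25), Ifi208 (3.29), Rsad2 (3.26), Ifit1 (3.08), Cmpk2 (2.86), Oasl1 (2.86), Ifit2 (2.77), Isg20 (2.47), Usp18 (2.45), Slfn5 (2.35), Isg15 (2.33) and Oas3 (2.22), all from interferon-induced families. The 12 furthest lower included Retnla (-6.25 or lower), Fn1 (-3.29), Clec4n (-2.93), Spint1 (-2.71), H2-Eb1 (-2.29), Lyz2 (-2.26), App (-2.25), Ncf1 (-2.24), Ccl9 (-2.22), Cxcl16 (-2.15) and Msr1 (-2.14), most of which are macrophage or MHC class II genes. Genes whose NK level was under 0.25 of that in the other cells were left out of these 6 sets, which removed 4, 1, 5, 4, 5 and 10 genes that would otherwise have entered.

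The rarer granzymes were among the genes that varied most between NK cells of 1 library. Variation was measured as the variance of UMIs per cell beyond counting error, relative to the squared mean, and its median over genes was 0.314 in COX2i + 5-AZA and 0.274 in IRF3/7. Over all NK cells the highest value was 281 in COX2i + 5-AZA, for Retnla, and 125 in IRF3/7, for Gzmg, which 2.11% of cells carried. Without the cells over 1% of monocyte and macrophage UMIs, Gzmf stood at 33.2 in COX2i + 5-AZA, where 8.61% of cells carried it, and at 20.5 in IRF3/7, where 10.1% did. Gzme followed at 18.5 and 19.5, and Gzmd at 16.8 and 15.3. Tnfsf11 stood at 16.7 in COX2i + 5-AZA, carried by 9.62% of cells, and Pdcd1, the checkpoint PD-1, at 43.6, carried by 4.304%. UMIs of Gzmd, Gzme and Gzmf were thus found in few cells of COX2i + 5-AZA and IRF3/7, while those of Gzma and Gzmb were found in most. The split of UMIs between the close copies remains uncertain.

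Lists for other cell types gave low or partial signals. Of 5 T cell genes compared, 1 was higher and 0 lower, 3 higher and 1 lower, and 2 higher and 0 lower in the 3 comparisons (medians 0.06, 1.28 and 0.24), beside 4.4% higher and 0.992% lower, 6.7% and 3.11%, and 1.98% and 2.87% of all genes tested. Cd28, a costimulatory receptor, stood at 43.1 CPM in COX2i, 55.9 in COX2i + 5-AZA and 176 in IRF3/7, while Trbc1 stood level at 1039 CPM in COX2i, 848 in COX2i + 5-AZA and 1004 in IRF3/7. The innate lymphoid cell 2 and 3 genes summed to 647 CPM in CTRL, 408 in COX2i, 597 in COX2i + 5-AZA and 463 in IRF3/7, with 1 higher and 1 lower of 4, 2 and 1 of 4, and 1 and 0 of 5 (medians 0.36, 0.75 and -0.43). The neutrophil and mast cell genes summed to 30.8, 267, 341 and 309 CPM, with 1 higher and 0 lower of 2, 1 and 1 of 3, and 1 and 1 of 4 (medians 0.53, 0.67 and -0.23). The tumour and stromal genes summed to 123, 306, 190 and 78.1 CPM, with 0 higher and 0 lower of 2 in COX2i + 5-AZA over COX2i (median -0.40), none with enough UMIs in IRF3/7 over COX2i, and 0 higher and 2 lower of 2 in IRF3/7 over COX2i + 5-AZA (median -1.86). The 1 B cell gene with enough UMIs, Ighm, stood at 274 CPM in COX2i, 92.8 in COX2i + 5-AZA and 84.6 in IRF3/7, with log2 ratios of -1.56, -1.70 and -0.13. Rag2-/- mice make no B cells of their own, so Ighm is not read as a B cell signal. The part of the other cell types in the NK differences was not tested.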

How the data were processed

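The authors sorted live CD45+ cells, fixed them and profiled them with a probe-based 10x assay (Chromium Flex), multiplexing the 4 libraries, and made the deposited UMI counts with cellranger multi (Cell Ranger 7.1.0, mm10, per the submitters' processing notes). They kept cells above 1000 detected genes and dropped ribosomal and mitochondrial genes and genes rare in other experiments, which left 12584 genes here. In these genes 1, 8, 64 and 53 NK cells of CTRL, COX2i, COX2i + 5-AZA and IRF3/7 show 1000 or fewer. Cell classes (17) are the authors' annotation, made on an integrated, batch-corrected map. The UMI sums matched the deposited cell table in all 34447 cells. No full barcode was shared between libraries, and 4830 of 29259 droplet barcodes occurred in at least 2 libraries, which held 331 NK cells. No doublet caller was run, and leaving out the 10% of cells with most UMIs was tried instead.

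Counts were summed over the NK cells of each library and given as CPM with exact Poisson intervals, with exact conditional intervals for ratios and Clopper-Pearson intervals for shares (python 3.11.15, numpy 2.4.6, pandas 2.3.3, scipy 1.17.1, matplotlib 3.10.9). The steps were tested on simulated data. Cells were thinned to 1500 UMIs (seed 7, alternative 1000), leaving out 1, 11, 82 and 58 shallower NK cells. A count of 0 was set to 3 UMIs for a bound. The 30 gene lists and their members were chosen with earlier results of these data known. Named genes were the list members, the 20 genes furthest above other cells, the 15 most variable genes with a mean of at least 0.2 UMIs, and the 12 furthest apart in each direction among genes with at least 200 UMIs over both pools and 100 CPM in the higher one. Coordinates are from the GENCODE annotation of GRCm38, which matched 508 of 509 genes looked up. The alternatives tried were other UMI minimums, scaling by the median ratio, the mean of per-cell CPM, thinning, and leaving out cells by depth, detected genes, T cell UMIs or myeloid UMIs. The values of a few genes are not reported here.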

Additional observations from a re-analysis of the deposited data

How the results depend on the processing

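No paired analysis was possible because each condition was 1 library, and for the same reason no replicate could be left out. With a minimum of 50 UMIs the genes at least 2-fold higher and lower were 432 and 147 in COX2i + 5-AZA over COX2i (222 and 50 as reported), the higher were 519 and the lower 343 in IRF3/7 over COX2i (336 and 156), and the lower were 326 in IRF3/7 over COX2i + 5-AZA (134 higher and 194 lower as reported). With a minimum of 200 the first comparison had 94 higher and 10 lower, the second 49 lower and the third 101 lower. Thinned cells gave 78 higher and 18 lower, then 62 lower, then 85 higher and 41 lower. Scaling by the median ratio, which took a median log2 ratio of -0.07, -0.17 and -0.08 out of the 3 comparisons, gave 452 higher and 89 lower in IRF3/7 over COX2i. The mean of per-cell CPM gave 151 lower in the first and 246 lower in the second. Without the 10% of cells with most UMIs there were 110 higher in the first and 84 lower in the third. Without cells over 1% myeloid UMIs there were 145 higher and 33 lower in the first and 89 lower in the third, or 87 with Spp1 not counted, a setting chosen after seeing the data. Of those 145 genes, 96 were among the 222, as were 25 of the 78 from thinned cells.

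Without cells carrying T cell UMIs, NK cells were 7.96% of IRF3/7, and with over 1000 detected genes required they were 3.87% of COX2i + 5-AZA. The share of NK cells with Gzmb was 99.1% unthinned and 94.004% at 1000 UMIs in IRF3/7, and 94.05% and 85.4% in COX2i + 5-AZA. The share with Gzmc at 1000 UMIs was 36.3% in IRF3/7, 56.0% in COX2i and 46.2% in COX2i + 5-AZA. List medians moved in 29 cases and kept their value within error in 754, and ratios of genes described one by one moved in 560 and kept it in 2139. The median changed sign in at least 1 setting for 20 of 80 lists and comparisons. S100a9, -0.96 in COX2i + 5-AZA over COX2i, stood at 2.82 without cells carrying T cell UMIs. Without cells over 1% myeloid UMIs, and then with Spp1 not counted, called ratios turned for Apoe (-0.076 and -0.054 in COX2i + 5-AZA over COX2i, -0.11 and -0.027 in IRF3/7 over COX2i, and with Spp1 not counted 0.028 in IRF3/7 over COX2i + 5-AZA), Ms4a4a (0.037 and 0.061 in IRF3/7 over COX2i + 5-AZA) and Cxcl9 (2.59 and 2.58 in COX2i + 5-AZA over COX2i, 1.58 and 1.54 in IRF3/7 over COX2i). Cxcl9 stood at 4.11 and 3.24 in those comparisons without cells carrying T cell UMIs. Of 184 ratios of genes described one by one that reached 2-fold, 63 missed it or turned direction in at least 1 setting, 34 of them in thinned cells, 30 as a mean of per-cell CPM, 26 without the 10% of cells with most UMIs and 16 without cells over 1% myeloid UMIs. The causes were not tested. The 50 COX2i and 11 CTRL cells limit every comparison with them.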
